A study of Mus musculus with 8 samples.

Results

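To ask where genes that drive the first lineage choices lie in the nuclear compartments of stem cells, and whether loss of H3K9 methyltransferases moves them, compartment scores were read at 9 regulators of endoderm (Gata6, Gata4 and Foxa2), mesoderm (Eomes and Mesp1), neural (Pax6, Sox1 and Neurog2) and trophoblast (Cdx2) fate. They were chosen by name, as genes that are typically silent in pluripotent cells, out of 20807 protein-coding genes on the autosomes. All 9 had scores in every library. Each gene was represented by the 100-kb bins that its body overlaps, 11 bins in all because Gata4 and Sox1 span 2 bins each, and by 500 kb on either side, 101 bins in all with none missing. Expression was not measured in these values, so neither the silence of these genes nor the identity of the cells could be checked from them.

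The scores came from Hi-C, which counts contacts between genomic loci in fixed nuclei, in 8 libraries of mouse embryonic stem cells (mESCs) grown with LIF on gelatin, 1 library for each group. The #33-6 Setdb1 conditional knockout line gave untreated cells (Setdb1 WT), cells under 2 µM UNC0642 for 3 days (Setdb1 WT + UNC), cells under 800 nM 4-OHT for 5 days, which removes SETDB1 (Setdb1 KO), and cells under 800 nM 4-OHT for 2 days followed by 2 µM UNC0642 for 3 days (Setdb1 KO + UNC). UNC0642 inhibits G9a and GLP, the main enzymes for H3K9me2, while SETDB1 and SUV39H1/2 are best known for H3K9me3. ADF1-26 WT mESCs (Suv39h WT) and ADF157 Suv39h1/2 DKO mESCs (Suv39h DKO), which lack both SUV39H1 and SUV39H2, were each taken untreated and under 2 µM UNC0642 for 3 days. The Suv39h WT and Suv39h DKO cells come from different clones, and a clone effect cannot be told apart from the genotype. In the Setdb1 line only the knockout libraries received 4-OHT, so an effect of 4-OHT itself cannot be told apart from SETDB1 loss. Setdb1 KO + UNC had 4-OHT for 2 days and Setdb1 KO for 5 days, so UNC0642 is not their only difference. Because each group had 1 library, a difference between a pair of libraries has no replicate check here. The study performed Hi-C 2 times, and the sources do not say whether a set of scores is from the first run, the other or their pool.

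Chromosomes fold so that active regions touch other active regions (A compartment) and inactive, often lamina-bound regions touch each other (B compartment). The compartment score places each bin on this axis, with positive values in A and negative values in B, and it has no physical unit. Lineage regulators in stem cells are textbook cases of genes that are off but poised: many have CpG-rich promoters held by Polycomb proteins rather than by H3K9 methylation, and some move toward active chromatin when the cells differentiate. A score averages all cells of a culture, so a change in a share of cells and a partial change in every cell cannot be told apart. The size of a score also depends on the number of bins on the chromosome, so genes on different chromosomes are compared below in units of the SD of scores on their chromosome in that library, or by percentile, the share of bins on the chromosome with a lower score.

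Most of these regulators lay in the A compartment of these stem cells. Of the 9 genes, 7 were in A in all 8 libraries, Foxa2 was in B in all 8, and Pax6 was in A in 2 libraries and in B in 6. In the genome, 38.9% of bins were A in all 8 libraries and 48.0% were B in all 8. Genes lie more often in A than bins do: 70.8% of protein-coding genes were A in all libraries and 21.2% were B in all, so the share among the regulators was near that of genes in general. Their median score was 0.81 SD, against 1.03 SD for all protein-coding genes, and their median percentile was 76.7, against 78.8.

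**Figure D1:**
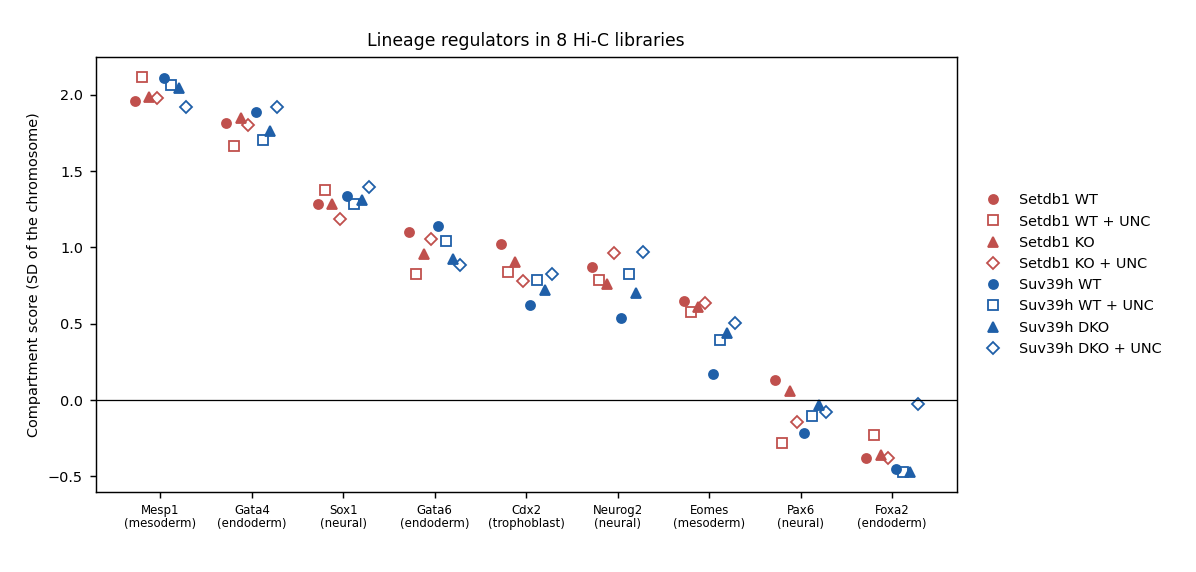
Compartment score of each regulator in units of the SD of its chromosome (vertical axis) in 8 Hi-C libraries (symbols, 1 library each, red for the Setdb1 line and blue for the Suv39h lines), with genes ordered by their mean. Mesp1, at a mean of 2.02 SD, lies highest, and Pax6 and Foxa2 are the genes with values below 0.

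The span between genes was wider than the span of any gene between libraries. Mesp1, which starts cardiac and other mesoderm, had the highest mean (2.02 SD, range 1.92 to 2.12) at the mean percentile 99.6 of its chromosome. Gata4, a driver of endoderm and heart, followed at 1.80 SD (1.66 to 1.92). Sox1, an early marker and regulator of neural progenitors, lay at 1.31 SD (1.18 to 1.40). These 3 genes kept separate ranges from each other and from the genes below them.

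In the middle of the order, neighbouring genes had overlapping ranges. Gata6, which commits cells to primitive endoderm, averaged 0.99 SD (0.82 to 1.14), Cdx2, which specifies trophectoderm, averaged 0.81 SD (0.62 to 1.02), Neurog2, a proneural factor, averaged 0.80 SD (0.54 to 0.97) and Eomes, which acts in trophoblast, mesoderm and definitive endoderm, averaged 0.50 SD (0.17 to 0.65). Within libraries, Neurog2 lay above Eomes in 8 of 8 and Gata6 above Cdx2 in 7, while Cdx2 lay above Neurog2 in 5. Below Eomes came a gap, as its lowest library still exceeded every value of Pax6, the master regulator of eye and forebrain. Pax6 averaged -0.08 SD (-0.28 to 0.13) and Foxa2, a pioneer factor of endoderm and floor plate, averaged -0.35 SD (-0.47 to -0.02), with overlapping ranges and Pax6 above Foxa2 in 6 of 8 libraries.

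Lineage did not sort the genes. Endoderm held both Gata4 at mean 1.80 SD and Foxa2 at mean -0.35 SD, so its 3 genes spanned nearly the whole order, with 16 of 24 gene-by-library values in A. The neural genes ran from -0.08 SD (Pax6) to 1.31 SD (Sox1), with 18 of 24 values in A. Both mesoderm genes were in A in all 16 values, and Cdx2, the single trophoblast gene, in all 8. With 1 to 3 genes per lineage no test between lineages was made.

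Foxa2 and Pax6 share chromosome 2, so their scores can be compared directly. Foxa2 (GENCODE vM21, mm10, chr2:148042877-148046969, minus strand) scored, in the Setdb1 line, -0.00835 in WT, -0.00496 in WT + UNC, -0.00791 in KO and -0.00841 in KO + UNC. In the Suv39h lines it scored -0.00998 in WT, -0.0104 in WT + UNC, -0.0104 in DKO and -0.000539 in DKO + UNC. All 8 values were negative, 7 of them fell between -0.0104 and -0.00496, and the value of Suv39h DKO + UNC stood apart, just below 0.

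Pax6 (chr2:105668900-105697364, plus strand) straddled 0. In the Setdb1 line it scored 0.00282 in WT, -0.00615 in WT + UNC, 0.00130 in KO and -0.00315 in KO + UNC. The Suv39h values were -0.00472 in WT, -0.00234 in WT + UNC, -0.000769 in DKO and -0.00174 in DKO + UNC. Both libraries in which Pax6 was in A were of the Setdb1 line without UNC0642, and both UNC0642 libraries of that line were lower than both of these.

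The A or B label of these 2 genes depended on where 0 is set. Each chromosome averaged 0 in each library, as if a mean had been subtracted from an eigenvector of unit length, a step inferred from the values and not described by the authors. With the mean that this reading implies for chromosome 2 (0.00843 to 0.00971) added back, Pax6 was in A in 8 libraries and Foxa2 in 5, and with it subtracted once more both were in B in all 8. Their percentiles do not depend on this: Pax6 averaged percentile 52.3 and Foxa2 43.6. The other 7 genes were in A in all libraries under either setting.

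The 3 lowest members were Foxa2, Pax6 and Eomes, and the sequences just upstream of their starts are shown because CpG-rich starts are the hallmark of such regulators. Each is the 250 bases before the RefSeq start (GRCm38.p6, which shares coordinates with mm10), 5′ to 3′ on the gene's strand, with every CG in capitals. The Foxa2 sequence lies at chr2:148046970-148047219 (minus strand), that of Pax6 at chr2:105668646-105668895 (plus strand) and that of Eomes at chr9:118477939-118478188 (plus strand).
Foxa2: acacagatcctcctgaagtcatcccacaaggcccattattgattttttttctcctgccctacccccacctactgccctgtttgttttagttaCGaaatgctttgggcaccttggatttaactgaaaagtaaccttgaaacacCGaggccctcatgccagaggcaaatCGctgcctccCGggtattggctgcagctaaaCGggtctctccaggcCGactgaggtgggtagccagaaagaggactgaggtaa
Pax6: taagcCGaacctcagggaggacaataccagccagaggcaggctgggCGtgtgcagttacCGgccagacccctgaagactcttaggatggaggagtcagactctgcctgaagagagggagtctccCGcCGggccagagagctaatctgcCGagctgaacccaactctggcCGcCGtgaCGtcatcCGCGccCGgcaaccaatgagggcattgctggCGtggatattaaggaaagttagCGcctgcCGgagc
Eomes: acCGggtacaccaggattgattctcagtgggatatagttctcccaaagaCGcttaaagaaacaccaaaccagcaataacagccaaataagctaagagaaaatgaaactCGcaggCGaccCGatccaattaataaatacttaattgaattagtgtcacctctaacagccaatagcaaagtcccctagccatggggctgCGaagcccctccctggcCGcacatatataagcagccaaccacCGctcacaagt
The Pax6 sequence holds 15 CG, the Eomes sequence 8 and the Foxa2 sequence 6, against a median of 6 over 32851 promoter windows of this length, of which 92.1% hold at least 1. The motif searched was CG, which reads the same on both strands. Of the other members, Sox1 had 29, Cdx2 13, Neurog2 8 and Mesp1 2, and Gata4 and Gata6 had no entry. The GENCODE starts of Sox1 (12395295) and Mesp1 (79793788) fall inside their windows, so by GENCODE most of these windows lies within the gene. Mesp1, with the fewest CG, had the highest score, and a 100-kb score does not resolve a promoter.

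All 9 genes sat in bins that were GC-rich among all bins of their chromosome, including those with low scores. Bins that hold genes were not taken as a separate background, so this is not shown to be particular to these regulators. The GC content of the gene bins ran from 43.9% (Neurog2) to 49.2% (Mesp1), at percentiles 72.4 (Foxa2) to 94.1 (Gata4) of their chromosome. The ratio of observed to expected CpG in the gene bins lay at percentiles 80.6 (Foxa2) to 99.2 (Pax6). Pax6 therefore combined a bin at percentile 81.2 for GC with a mean score at percentile 52.3.

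The neighbourhoods fell into 3 kinds. Of the 101 bins, 68 (67.3%) were A in all libraries, 23 (22.8%) were B in all and 10 (9.90%) were mixed. The windows of Mesp1 (chr7:79792241-79793788, minus strand), Gata4 (chr14:63198922-63271692, minus strand), Sox1 (chr8:12395295-12400126, plus strand) and Cdx2 were in A throughout, in every bin and every library. The deposited score ran from 0.0468 to 0.0526 at Mesp1, from 0.0463 to 0.0533 at Gata4 and from 0.0320 to 0.0372 at Sox1 over the 8 libraries. These windows were also the gene-rich ones apart from Sox1, with 24 protein-coding starts around Mesp1, 17 around Gata4, 15 around Cdx2 and 7 around Sox1. The Mesp1 bin itself also holds the starts of Kif7, Plin1, Pex11a and Wdr93, the 2 gene bins of Gata4 hold Ctsb, Fdft1 and Neil2, and the Cdx2 bin overlaps Urad and Flt3, so their scores do not belong to the regulator alone.

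**Figure D2:**
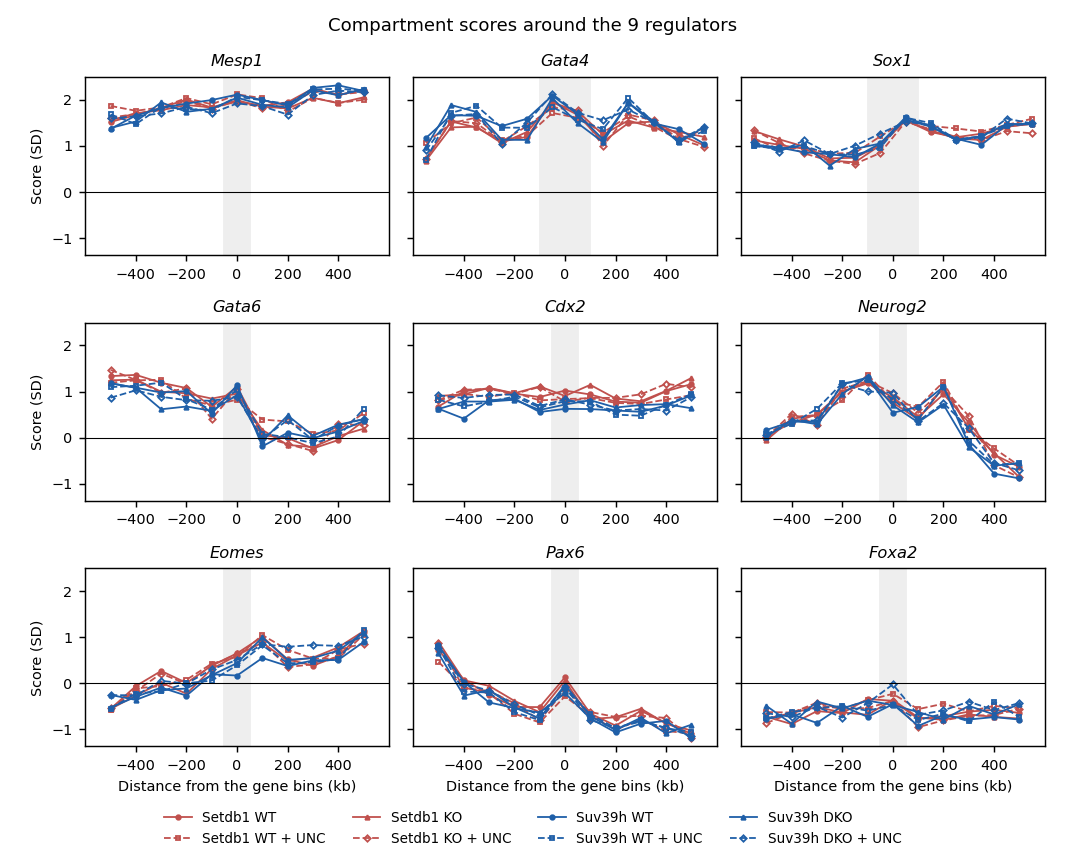
Compartment score in SD of the chromosome (vertical axis) against distance from the gene bins in kb (horizontal axis, increasing with the chromosome coordinate) for the 9 regulators, 1 line per library, with the gene bins shaded. Mesp1, Gata4, Sox1 and Cdx2 stay above 0 throughout, Gata6 (in all libraries but Setdb1 WT + UNC), Neurog2 and Eomes lie near an edge, and Pax6 and Foxa2 are raised points in a B region.

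Gata6, Eomes and Neurog2 lay near an edge of the A compartment, with a B bin within 400 kb in every library except Setdb1 WT + UNC at Gata6, where all 11 window bins were A and the nearest B bin was 1200 kb away. Gata6 (chr18:11052064-11085635, plus strand) was the last high bin on its side: it averaged 0.0330, the bin 100 kb further along averaged 0.00175, and 4 bins on that side were A in some libraries and B in others. Eomes (chr9:118478212-118486132, plus strand) lay on a slope that rose from a mean of -0.0135 at 500 kb before it to 0.0295 at 500 kb after it, where Ctdspl begins. Neurog2 (chr3:127633135-127635631, plus strand) averaged 0.0201 and shared its bin with parts of Zgrf1 and Alpk1. Beyond it the score turned negative in all libraries at 400 kb (mean -0.0127) and 500 kb (mean -0.0178).

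Pax6 and Foxa2 stood above B surroundings. The bins 100 kb before and after Pax6 averaged -0.0156 and -0.0157 and were negative in all libraries, while the Pax6 bin averaged -0.00184. Its gene bin exceeded the mean of its 10 flanking bins in 8 of 8 libraries, by 0.31 to 0.59 SD. The nearest steady A bin was that of Wt1, a kidney and gonad regulator, 500 kb before it (mean 0.0164). All 11 bins around Foxa2 were B in every library, with the next A bin 1000 kb away, and the Foxa2 bin (mean -0.00763) exceeded its flank by 0.10 to 0.55 SD in 8 of 8.

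This local rise was common. In 7 of the 9 regulators the gene bins scored above their flank in all 8 libraries, as did 49.4% of protein-coding genes and 23.9% of all bins. Eomes did so in 7 libraries and Cdx2, in an even A region, in 4. With 9 genes chosen by name, the excess over genes in general was not tested.

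To see whether the regulators moved when the enzymes were lost or inhibited, 11 contrasts between pairs of libraries were read at each gene, 99 values in all. A change was called at a difference of at least 0.01. Of the 99 values 2 passed, Eomes between the untreated lines and Neurog2 in 1 contrast of the Suv39h lines, while 1.69% to 12.9% of all bins passed in each contrast. Contrasts that share a library are not independent of each other.

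**Figure D3:**
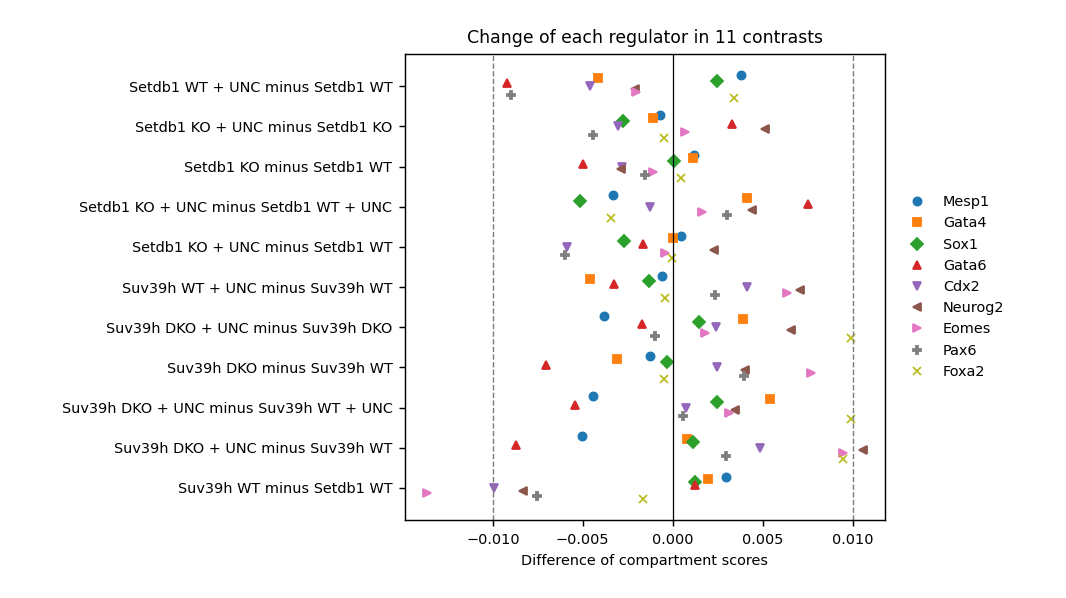
Difference of compartment scores (horizontal axis) of each regulator (symbols) in 11 contrasts of 1 library with another (rows), with dashed lines at the threshold of 0.01 either way. The 2 points outside the lines are Eomes at -0.0137 in Suv39h WT minus Setdb1 WT and Neurog2 at 0.0106 in Suv39h DKO + UNC minus Suv39h WT.

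As deposited, UNC0642 changed no regulator by 0.01 in any of the 4 pairs. After addition of the implied mean, Gata6 in Setdb1 WT + UNC against Setdb1 WT (-0.0100) and Foxa2 in Suv39h DKO + UNC against Suv39h DKO (0.0110) passed. Gata6 shows the size of the differences: its Setdb1 line scores were 0.0368 in WT, 0.0276 in WT + UNC, 0.0318 in KO and 0.0351 in KO + UNC. Its Suv39h scores were 0.0380 in WT, 0.0347 in WT + UNC, 0.0310 in DKO and 0.0293 in DKO + UNC, and the ranges of the lines overlapped. In Setdb1 WT + UNC the largest differences from Setdb1 WT, also given in chromosome SD of Setdb1 WT, were those of Gata6 (0.0276 against 0.0368, a difference of -0.00920 or -0.28 SD) and Pax6 (-0.00896 or -0.41 SD). In this pair 8.13% of all bins changed by the threshold. The flank of Gata6 went the other way there: 3 of its bins rose by at least 0.01, the largest by 0.0121 at 200 kb, 3 switched sign, and the window mean rose by 0.00226. In Suv39h WT + UNC the largest difference from Suv39h WT was that of Neurog2 (0.0206 against 0.0136, a difference of 0.00709), with 4.79% of bins changing. In the knockouts the largest differences under UNC0642 were those of Neurog2 in Setdb1 KO + UNC against Setdb1 KO (0.00515, with 1.69% of bins changing) and Foxa2 in Suv39h DKO + UNC against Suv39h DKO (0.00990, with 6.73% changing). The Setdb1 KO pair also differed in its days under 4-OHT. Gata6, Gata4, Mesp1 and Pax6 scored lower with the inhibitor in 3 of 4 pairs, Neurog2 and Eomes higher in 3 of 4, and Foxa2, Sox1 and Cdx2 higher in 2 of 4. No gene had the same sign in all 4, which 12.7% of bins had.

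SETDB1 loss changed none of the 9 genes by 0.01. The largest difference of Setdb1 KO from Setdb1 WT was that of Gata6 (0.0318 against 0.0368, a difference of -0.00497), with 2.28% of bins changing by 0.01. Under UNC0642, Gata6 instead scored 0.0351 in Setdb1 KO + UNC against 0.0276 in Setdb1 WT + UNC, a difference of 0.00755, where 12.9% of bins changed. The difference of Setdb1 KO + UNC from Setdb1 WT was largest at Pax6 (-0.00596), and 2.64% of bins changed. Gata6 thus had opposite signs in the 2 pairs that compare SETDB1 loss, both below the threshold in size. The sign under UNC0642 rests on Setdb1 WT + UNC, whose Gata6 score (0.0276) was the lowest of all libraries.

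SUV39H1/2 loss, with or without UNC0642 on both sides, also changed no regulator by 0.01 in the deposited scores. Eomes scored 0.0124 in Suv39h DKO against 0.00475 in Suv39h WT, a difference of 0.00767, and Gata6 0.0310 against 0.0380, a difference of -0.00702, while 7.38% of bins changed by 0.01. Suv39h DKO + UNC minus Suv39h WT + UNC was -0.00546 at Gata6 and 0.00989 at Foxa2, where 6.84% of bins changed. Against Suv39h WT, the Foxa2 difference of Suv39h DKO + UNC was 0.00944 and the Gata6 difference -0.00870. The 3 Foxa2 differences that use Suv39h DKO + UNC rest on that 1 library and lie just inside the threshold, and all 3 passed it after addition of the implied mean (0.0101 to 0.0110).

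Neurog2 was the gene that passed in a contrast with a perturbed library. Its Setdb1 line values were 0.0219 in WT, 0.0198 in WT + UNC, 0.0190 in KO and 0.0242 in KO + UNC. In the Suv39h lines it scored 0.0136 in WT, 0.0206 in WT + UNC, 0.0176 in DKO and 0.0241 in DKO + UNC. The rise from Suv39h WT to Suv39h DKO + UNC was 0.0106, past a threshold that 4.53% of bins passed upward and 9.8% either way, and Suv39h WT was the lowest of all 8 libraries. The highest value of each line came from its knockout under UNC0642. The Neurog2 call was lost after quantile normalization, with the implied mean subtracted and for the mean over the window.

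As deposited, Pax6 was the only regulator that changed sign between libraries. It went from A to B in 4 contrasts: Setdb1 WT + UNC against Setdb1 WT (-0.00896, where 5.12% of bins switched either way), Setdb1 KO + UNC against Setdb1 KO (-0.00445, 3.14%), Setdb1 KO + UNC against Setdb1 WT (-0.00596, 3.58%) and Suv39h WT against Setdb1 WT (-0.00753, 5.53%). None of these reached 0.01, and with the implied mean added or subtracted Pax6 kept a single sign in all libraries. With it added, Foxa2 was instead the gene with both signs, in A in 5 libraries and in B in the others. In the other 7 contrasts no regulator switched, while 3.22% (Setdb1 KO against Setdb1 WT), 6.34% (Setdb1 KO + UNC against Setdb1 WT + UNC), 3.92% (Suv39h WT + UNC against Suv39h WT), 4.11% (Suv39h DKO + UNC against Suv39h DKO), 4.63% (Suv39h DKO against Suv39h WT), 5.05% (Suv39h DKO + UNC against Suv39h WT) and 4.59% (Suv39h DKO + UNC against Suv39h WT + UNC) of bins did. In the Suv39h lines Pax6 scored higher in WT + UNC than in WT by 0.00238, so the inhibitor had no common sign at this gene.

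The genes that lay deepest in A varied least between libraries. The range over 8 libraries was 0.00517 for Sox1, 0.00586 for Mesp1 and 0.00694 for Gata4, smaller than that of most bins, as 5.36%, 9.34% and 17.3% of bins had a smaller range. Eomes had the widest range, 0.0137, and 73.4% of bins had a smaller one. The median over all bins was 0.0104. These ranges are in the deposited score, whose size depends on the chromosome. In units of the chromosome SD the same genes varied least. Their SD over the libraries was 0.0655 for Sox1, 0.0725 for Mesp1 and 0.0880 for Gata4, and that of Eomes was the largest at 0.163.

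Eomes scored lower in the Suv39h libraries than in the Setdb1 line, a difference that limma did not call. In the Setdb1 line the scores were 0.0184 in WT, 0.0164 in WT + UNC, 0.0173 in KO and 0.0180 in KO + UNC. In the Suv39h lines the scores were 0.00475 in WT, 0.0111 in WT + UNC, 0.0124 in DKO and 0.0142 in DKO + UNC. Every Suv39h value lay below every value of the Setdb1 line, which held for no other regulator in either direction, and for 6.5% of bins in this direction and 6.57% in the other. The difference of Suv39h WT from Setdb1 WT was -0.0137, a fall that 6.27% of bins shared (12.0% changed either way), and the 3 perturbed Suv39h libraries were each closer to the Setdb1 line than Suv39h WT was. Within the Suv39h lines, Suv39h DKO + UNC exceeded Suv39h WT by 0.00948, inside the threshold as deposited and past it (0.0110) after addition of the implied mean.

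To use all 8 libraries at once, limma was fitted to every bin with a level for each of the 4 genotypes and a term for UNC0642, to which a second fit added the line by UNC0642 term, so that libraries differing in the other factor stand in for replicates. None of the 11 gene bins was called for any of the 5 terms tested. The same was true of all 23972 bins for UNC0642, for the difference in its effect between the lines, and for loss of SETDB1 or of SUV39H1/2, each at 0.0% called by limma, with 1187, 880, 2182 and 2302 bins at an unadjusted p under 0.05. The lowest limma p among the gene bins for UNC0642 was that of Neurog2, with an effect of 0.00417 ± 0.00215 (SE) and an adjusted p of 0.957. For SUV39H1/2 loss it was that of Gata6, at -0.00624 ± 0.00324 (SE) with a limma adjusted p of 0.567, and for SETDB1 loss a bin of Sox1, at -0.00474 ± 0.00322 (SE) with a limma adjusted p of 0.722.

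The line difference was the term for which limma called bins, 4.25% higher and 4.39% lower in the Suv39h lines, and the regulators stayed outside them. These 2070 calls became 427 (without Suv39h DKO) to 1149 (without Suv39h WT + UNC) when any 1 library other than Setdb1 WT + UNC was left out, and 2913 without that one. Eomes came nearest, at -0.00689 ± 0.00205 (SE) with a limma adjusted p of 0.0648. Without Setdb1 WT + UNC it was -0.00815 with an adjusted p of 0.0454 by limma, so this 1 library decides the call. The lines differ in origin and in which enzymes are missing from some of their libraries, and these cannot be told apart.

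Around the genes, limma called 4 of the 101 window bins for the line difference, against 8.64% of all bins, and 3 of the 4 lay near Cdx2. The bin of Pdx1, the pancreatic regulator next to Cdx2, averaged 0.0241 over the Setdb1 line and 0.0153 over the Suv39h lines with no overlap between them, a difference of -0.00881 with a limma adjusted p of 0.0215. The bin of Flt1, at 400 kb after Cdx2, differed by -0.00812 (limma adjusted p 0.0394) and the bin of Gtf3a and Mtif3, at 400 kb before it, by -0.00751 (limma adjusted p 0.0467), both lower in the Suv39h lines. All 11 bins of the Cdx2 window had the same sign and 8 had an unadjusted limma p under 0.05, which 25.7% of all bins had, but the Cdx2 bin itself had an adjusted p of 0.299. Adjacent bins are not independent, and none of the 3 was called when any 1 library other than Setdb1 WT + UNC was left out. The fourth bin, of Blk and Fam167a at 200 kb after Gata4, was higher in the Suv39h lines by 0.00931 (limma adjusted p 0.0272).

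Cdx2 (chr5:147300805-147307270, minus strand) itself scored 0.0252 in WT, 0.0206 in WT + UNC, 0.0224 in KO and 0.0194 in KO + UNC of the Setdb1 line. The Suv39h values were 0.0153 in WT, 0.0194 in WT + UNC, 0.0178 in DKO and 0.0202 in DKO + UNC. Suv39h WT was the lowest and Setdb1 WT the highest, and the ranges of the lines overlapped. The difference between these untreated libraries was -0.00996, just inside the threshold.

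To place the 9 genes among other lineage genes, lists of 12 endoderm, 15 mesoderm, 16 neural and 8 trophoblast genes and of 12 pluripotency genes were scored in the same way. Not every listed gene is a regulator, as the endoderm list holds Cer1 and the trophoblast list Krt7, a keratin. The counts that follow move with the zero: after addition of the implied mean 44 of the 51 lineage genes were A in all libraries, and after its subtraction 34. Subtraction left Elf5 in A in 3 libraries, Gata3 in 4 and Hand2 in 5, and addition put Twist1 in A in 3. As deposited, of the 51 lineage genes, 42 were A in all libraries, 8 were B in all and 1 was mixed, against the 70.8% and 21.2% of all protein-coding genes that were A in all and B in all. All 8 trophoblast genes and 14 of 15 mesoderm genes were A in all, with Twist1 (mean -0.26 SD) the exception. Tead4 (1.60 SD) and Gata3 (0.38 SD) were the ends of the trophoblast list. In endoderm 10 of 12 were A in all, the others being Foxa2 and Cer1, a secreted inhibitor of Nodal. The neural list held the most B genes, with 10 A in all, 5 B in all and Pax6 mixed. Among the B genes were Neurod1 (mean -0.66 SD, the lowest of the list), Zic1 (-0.53 SD), Otx1 (-0.36 SD) and Nkx2-2 (-0.13 SD).

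**Figure D4:**
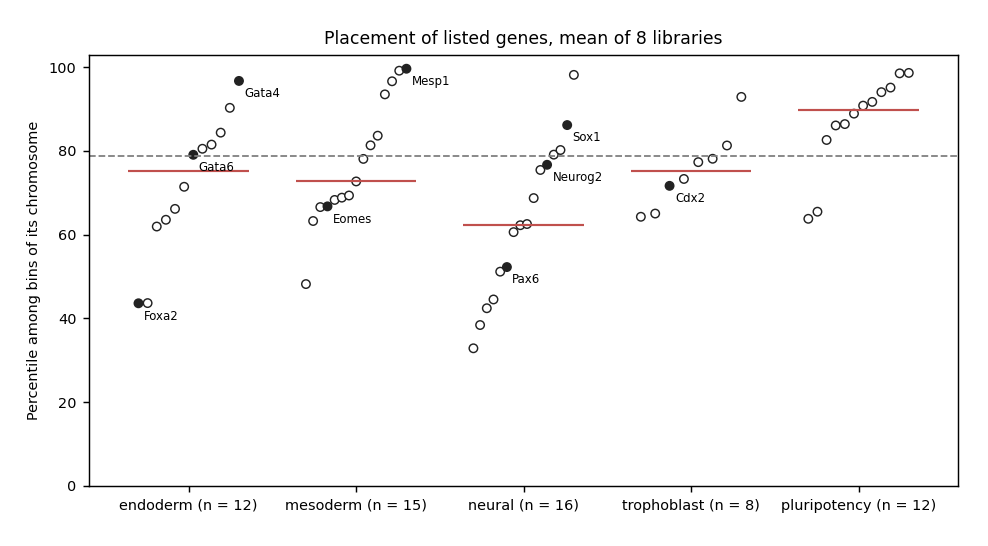
Mean percentile of each listed gene among the bins of its chromosome over 8 libraries (vertical axis) for 4 lineage lists and a pluripotency list, with the 9 regulators filled and named, red bars at the list medians and a dashed line at the median of all protein-coding genes (78.8). The pluripotency median is 89.9 and the neural median 62.4.

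Pluripotency genes, which stem cells use, had the highest median of the 5 lists. All 12 were A in all libraries, with a median percentile of 89.9 and with Pou5f1 at the top (mean 1.97 SD) and Zfp42 at the bottom (0.42 SD). With the implied mean subtracted, Klf4 was in A in 6 libraries and Zfp42 in 7. The medians of the lineage lists were 75.3 for endoderm, 72.7 for mesoderm, 62.4 for neural and 75.3 for trophoblast. The lists overlapped: Mesp1 and Gata4 exceeded most pluripotency genes, and Neurog1 reached 2.03 SD. No test of the lists was made.

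For each regulator, the listed gene outside its window with the closest scores over the 8 libraries was found by Euclidean distance in SD units. It came from the same lineage in 1 of 9 cases, Nkx2-2 for Pax6 (distance 0.363). The number that the list sizes alone would give was not computed, so this count carries no result about lineage. Scores were not centred, so the distance reflects the mean level of a gene as well as its pattern over libraries. The closest match of all was that of Mesp1 with Pou5f1 (0.213). Neurog2 was nearest to Hand1 (0.253), Cdx2 to Neurog2 (0.329), Sox1 to Nkx2-5 (0.343), Gata6 to Lhx2 (0.359), Gata4 to Tbx6 (0.412), Eomes to Pax3 (0.455) and Foxa2 to Otx1 (0.458).

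Among the 54 listed genes that were not members, 3 had a bin called by limma for the line difference (5.56%, against 9.94% of protein-coding genes and 8.64% of bins). Besides Pdx1 these were Nr5a2, a pluripotency factor, lower in the Suv39h lines in 1 of its bins (-0.00733, limma adjusted p 0.0371), and Sox17, an endoderm regulator that acts with the GATA factors, higher by 0.0147 (limma adjusted p 0.0259). The Nr5a2 call was lost when any 1 library was left out, and that of Sox17 without Setdb1 WT, Setdb1 KO, Suv39h WT or Suv39h DKO (limma adjusted p 0.0881 to 0.135). The Setdb1 line scores of Sox17 were 0.0175 in WT, 0.0148 in WT + UNC, 0.0144 in KO and 0.0155 in KO + UNC. In the Suv39h lines Sox17 scored 0.0473 in WT, 0.0286 in WT + UNC, 0.0317 in DKO and 0.0135 in DKO + UNC, so its highest and lowest values were both there. It was the listed gene with a fall of at least 0.01 from SUV39H1/2 loss both without and with UNC0642, which 0.859% of bins did in 1 direction or the other. Its fitted SUV39H1/2 effect of -0.0153 ± 0.00472 (SE) had a limma adjusted p of 0.386, so the fall did not pass the test.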

How the data were processed

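The authors cut chromatin with DpnII, aligned reads to mm10 with the 4DN Hi-C pipeline (v43), made contact matrices with Juicer Tools from alignments of mapping quality above 10, and deposited per autosome the compartment score of the KR-normalised map in 100-kb bins. The deposited files hold no read counts, and the read numbers that the study gives were not used here, so no counting error is given. The X and Y carry no scores.

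Of 24005 bins scored in any library, the 23972 in all 8 were used. Genes came from GENCODE vM21, with 20721 protein-coding genes in scored bins. Gene scores are the mean of the bins overlapped. limma 3.58.1 (R 4.3.3) was fitted to all bins, with 3 residual and 7.24 prior degrees of freedom (2 and 7.15 in the separate fit that adds the line by UNC0642 term), and p-values were adjusted by Benjamini-Hochberg over all bins at 0.05. The procedure was also run on simulated scores with independent noise in every bin, unlike real neighbouring bins. No outcome of that run is used as support, and the power of the tests is not given here. With 1 library per group, p-values measure only the spread between these libraries.

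The members, lists, threshold of 0.01 and tests were chosen with earlier results of these data known. Named besides the members were genes sharing their bins, the highest and lowest of each list, listed genes called by limma or changed by 0.01 with 1 sign in all pairs of a comparison, and the nearest listed gene by distance. Cer1, Zic1, Elf5, Hand2, Klf4, Krt7 and genes starting in window bins were named after their values were seen.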

Additional observations from a re-analysis of the deposited data

Results flagged for a closer look

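Foxa2 in Setdb1 WT + UNC (-0.00496) stood apart from the other 3 libraries of the Setdb1 line, and Foxa2 in Suv39h DKO + UNC (-0.000539) from the other 3 Suv39h libraries, each with a gap to its nearest neighbour above Dixon's 95% critical value for 4 libraries. Chance flags about 1 in 20 such sets, and 2 of the 36 sets tested were beyond it, against 1.8 expected.

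Cdx2 moved in opposite directions under UNC0642, down in both Setdb1 pairs (mean -0.00382) and up in both Suv39h pairs (mean 0.00327), a difference of 0.00710 for which the limma line by UNC0642 term had an adjusted p of 1.00. Each of the 4 changes was under 0.01 in size, and 11.1% of all bins had opposite signs of any size in the pairs of the 2 lines.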

How the results depend on the processing

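The count of gene-by-contrast changes past the threshold was 2, and became 0 at a threshold of 0.02, 7 at 0.36 of the chromosome SD, 0 for the mean of the gene bins with 500 kb of flank, 1 (Eomes) after quantile normalization, 7 with the implied chromosome mean added (3 Foxa2 changes, 2 of Eomes, Gata6 and Neurog2) and 3 (Gata6, Eomes and Cdx2) with it subtracted. At 0.36 SD the 7 were the Eomes and Neurog2 changes, 3 Foxa2 changes in contrasts with Suv39h DKO + UNC, Pax6 in Setdb1 WT + UNC against Setdb1 WT, and Cdx2 between the untreated lines. With the implied mean added, the mean score of Foxa2 turned from -0.00763 to 0.00135 and that of Pax6 from -0.00184 to 0.00713. Without Setdb1 WT + UNC, 51 of 63 gene-by-library values were in A, against 58 of 72. The Eomes change remained past 0.01 with the implied mean added or subtracted, after quantile normalization and after root-mean-square scaling.

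Leaving out 1 library at a time, limma called 427 (without Suv39h DKO) to 2913 (without Setdb1 WT + UNC) bins for the line difference, against 2070 with all. It called 0 to 448 for SETDB1 loss, the 448 without Setdb1 WT and with none of them a gene bin of the 9. In these fits a background left with 1 library is assumed to vary like the others. Eomes was called for the line difference without Setdb1 WT + UNC (-0.00815). The calls of the Cdx2 window for the line difference fell from 3 to 1 after quantile normalization or with the implied mean added. The alternatives that leave out Setdb1 WT + UNC, add or subtract the implied mean in the limma fits, or recount the Cdx2 window and the called listed genes were chosen after seeing the data. No analysis paired by replicate number was made, as the labels give none. UNC0642 was fitted within genotype, and without that block limma again called 0 bins, with 477 at an unadjusted p under 0.05 against 1187. Depth was not weighed.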
